A study of Mus musculus with 4 samples.

Results

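The 10 genes described here mark the cells that line blood vessels and the barrier these cells form: Pecam1, Cdh5, Esam, Cldn5, Ocln, Kdr, Flt1, Tek, Abcb1a and Slc2a1. They were chosen by symbol, not by their values, and all 10 were found among the 21883 features of each deposited table. The libraries come from young adult male wild-type mice of the BL6/C57 strain, in which the femoral and sciatic nerves of the left leg had been cut 7 days before. The groups are the ipsilateral lumbar dorsal root ganglia (DRG, levels 4 to 6), the contralateral DRG, the ipsilateral lumbar dorsal spinal cord and the contralateral dorsal cord, with 1 RNA sequencing library each. The contralateral tissue was taken from operated mice and is not uninjured tissue. The sources used here do not say whether a library pools several mice. Because each group is 1 library, no difference could be checked against replicates and no test was run.

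Endothelial cells form the inner wall of every vessel. In the spinal cord they are sealed to each other by tight junctions and carry pumps and nutrient transporters, which together make the blood-brain and blood-spinal cord barrier. The capillaries around the neuron cell bodies of a DRG are known to be more permeable than those of the cord. The perineurium, a sheath of flattened cells around nerve and ganglion, forms a second seal and also carries the glucose transporter encoded by Slc2a1.

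The difference that passed the thresholds lay in the transporter group. Slc2a1 was 2.26-fold higher in ipsilateral than in contralateral DRG, and it was the only 1 of the 10 genes that the authors' deposited table calls in either tissue. In such bulk samples a change in the number of cells of a type and a change in RNA per cell cannot be told apart. The genes for endothelial adhesion, tight junctions and growth factor receptors all stayed under a 2-fold difference in DRG. In dorsal cord none of the 10 reached 2-fold on the log2 scale used here, and Esam came nearest, with a log2 ratio of 0.91 and a plain fold of 2.32.

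Of the 10 genes, 7 have an upstream sequence in the RefSeq promoter table for build GRCm38.p6, which differs from the build of the expression tables. Shown are the 250 bases before the annotated start of Slc2a1, the gene with the called difference, and of Cldn5, the claudin of endothelial tight junctions. Both are read 5′ to 3′ on the plus strand, Slc2a1 at chr4:119108495-119108744 and Cldn5 at chr16:18776597-18776846. Capitals mark any of 3 motifs on either strand: ACGTG, the core of the hypoxia response element, GGGCGG, the GC box, and CCGGAA, an ETS factor core.
Slc2a1: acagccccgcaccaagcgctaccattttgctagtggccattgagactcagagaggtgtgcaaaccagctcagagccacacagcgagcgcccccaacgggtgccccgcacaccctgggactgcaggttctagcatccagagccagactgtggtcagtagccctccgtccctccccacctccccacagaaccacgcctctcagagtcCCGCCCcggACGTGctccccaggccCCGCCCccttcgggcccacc
Cldn5: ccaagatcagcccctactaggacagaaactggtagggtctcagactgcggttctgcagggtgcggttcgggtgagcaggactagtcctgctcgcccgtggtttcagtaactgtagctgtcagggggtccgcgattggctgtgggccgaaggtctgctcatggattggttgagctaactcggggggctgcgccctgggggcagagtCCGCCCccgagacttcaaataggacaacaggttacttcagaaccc

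The Slc2a1 window holds 1 ACGTG between 2 GC boxes, and the Cldn5 window holds 1 GC box. ACGTG is in 1 of the 7 genes' windows and in 16.6% of all 32851 windows of this length. A GC box is in 5 of the 7 and in 32.7% of all windows. CCGGAA is in 2 of the 7 (Kdr and Ocln, which has 2 windows) and in 12% of all windows. These are matches of letters, and the motifs were picked after the expression values were known.

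Levels are in FPKM, fragments per kilobase of a transcript relative to the library's mapped fragments, so they can be compared between genes. Log2 ratios are log2 of (ipsilateral FPKM + 1) over (contralateral FPKM + 1), which understates differences of low genes. A gene was taken as measured where at least 1 of its tissue's libraries was at 1 FPKM or above, and as 2-fold different where the log2 ratio was 1 or above, or -1 or below. Plain folds are ratios of the deposited FPKM, and each interval is a 95% interval, built on the standard error that the authors' deposited table implies. Such an interval compares 1 library with 1 library and leaves out variation between animals.

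Marker lists set the tissues apart as labelled. The 7 sensory neuron genes found in the tables summed to 1521 FPKM ipsilaterally and 1955 contralaterally in DRG, and to 15.4 and 9.92 in cord. The 8 astrocyte, oligodendrocyte and dorsal horn genes summed to 2167 and 1794 FPKM in cord and to 7.91 and 18.3 in DRG. The contralateral DRG library held Mog, Mobp and Slc6a5, genes of oligodendrocytes and glycinergic neurons, at 0.463% to 0.561% of their contralateral cord levels, and the ipsilateral one at 0.0208% to 0.0212%. The astrocyte genes Aqp4 and Slc1a2 were at 3.24% and 1.11% of that level contralaterally, and at 1.3% and 0.324% ipsilaterally. The highest of these shares, 3.24% of the contralateral cord level, would be 1.67 FPKM for Slc2a1, against 18.9 measured in contralateral DRG, and 0.49 FPKM or less for each of the other members. DRG carried much blood RNA, with the globin gene Hba-a1 at 11578 FPKM ipsilaterally and 11727 contralaterally, against 123 and 179 in cord.

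In DRG the members spanned a wide range of levels. Slc2a1 was highest and Ocln lowest in each library, and the order was Slc2a1, Abcb1a, Pecam1 and Flt1 at the top on both sides. Of the 10, 6 kept their place between the sides, and Cdh5, Kdr, Tek and Esam changed it. Cdh5, Cldn5 and Esam lay close together contralaterally (3.43 to 4.21 FPKM), and their order is not settled by 1 library. In cord Slc2a1 was again highest, and 2 members, Slc2a1 and Cdh5, kept their place. The positions of Flt1, Abcb1a and Cldn5, at 10.4 to 15.4 FPKM over both sides, and of Kdr, Ocln and Esam, at 1.97 to 4.57 FPKM, interchanged.

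**Figure D1:**
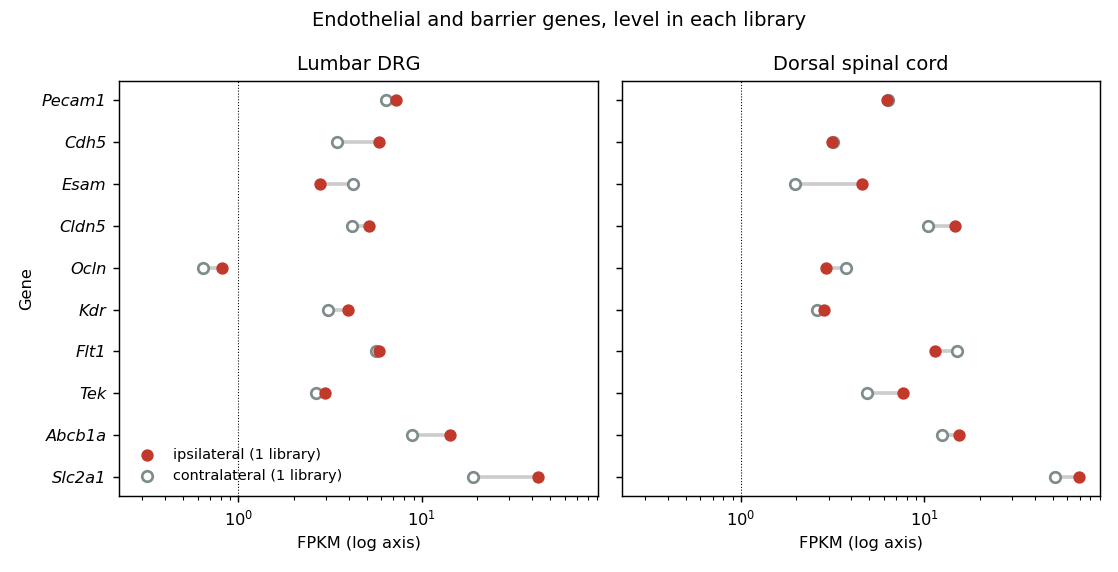
Level of each of the 10 genes in FPKM on a log axis, in DRG (left panel) and dorsal cord (right panel), with filled points for the ipsilateral and open points for the contralateral library (1 each) and a dotted line at 1 FPKM. Slc2a1 has the widest gap between sides in DRG, at 42.7 FPKM ipsilaterally and 18.9 contralaterally, and Esam lies on opposite sides of its contralateral point in the 2 tissues.

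Among the adhesion genes, Pecam1 encodes CD31, a surface protein of endothelial cells that leukocytes and platelets also carry. Pecam1 stood at 7.27 FPKM in ipsilateral and 6.39 in contralateral DRG, a log2 ratio of 0.16, and at 6.25 and 6.33 FPKM in cord, a log2 ratio of -0.02. Its fold had an interval of 0.828 to 1.56 in DRG and 0.608 to 1.6 in cord, from the authors' deposited table. These intervals include no difference in each tissue. Over the same libraries the 10 pan-myeloid genes summed to 143 FPKM ipsilaterally and 53 contralaterally in DRG, and to 347 and 76.1 in cord. The part of leukocyte Pecam1 in these levels was not tested.

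Cdh5 encodes VE-cadherin, the adhesion molecule of endothelial adherens junctions. In DRG it stood at 5.85 FPKM ipsilaterally and 3.43 contralaterally (log2 ratio 0.63), and in cord at 3.15 and 3.19 FPKM (-0.01). The 1.71-fold difference in DRG had an interval of 1.1 to 2.65, and the authors' deposited table does not call it (q = 0.157). In cord the fold was 0.989, and the interval implied by the authors' deposited table ran from 0.566 to 1.73. Cdh5 was therefore higher on the cut side in DRG with an interval above no difference, and was not called after the authors' adjustment over the table.

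Esam, an adhesion molecule of endothelial cells and platelets, ran in opposite directions in the tissues. It stood at 2.78 FPKM in ipsilateral and 4.21 in contralateral DRG (log2 ratio -0.46), and in cord at 4.57 FPKM on the ipsilateral and 1.97 on the contralateral side (0.91). The 0.66-fold value in DRG had an interval of 0.377 to 1.16, and the 2.32-fold value in cord one of 1.11 to 4.85, both from the authors' deposited table. The authors' deposited table calls neither, with q = 0.54 in DRG and q = 0.163 in cord. The 6 platelet genes summed to 24.5 FPKM ipsilaterally and 25.2 contralaterally in DRG, with Pf4 the highest, but the median log2 ratio of the 5 measured was -0.34. Among these 5, Gp9 was at 0.723 and 2.76 FPKM (-1.13), Ppbp at 3.95 and 6.44 (-0.59), Itga2b at 2.16 and 3 (-0.34), Pf4 at 13.6 and 10.7 (0.31) and Gp1bb at 3.16 and 1.31 (0.85). The part of platelet RNA in the Esam levels was not tested. In cord they summed to 2.25 and 2.55 FPKM, with Pf4 and Ppbp, their defining genes, listed at 0 on both sides.

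Neither tight junction gene was 2-fold different on the log2 scale used here, and the intervals of both, in both tissues, include a 2-fold one. Cldn5, whose product seals endothelial junctions of the nervous system, stood at 5.15 FPKM in ipsilateral and 4.15 in contralateral DRG (log2 ratio 0.25). In cord it stood at 14.7 FPKM ipsilaterally and 10.4 contralaterally (0.46). The intervals of its fold, 0.703 to 2.19 in DRG and 0.84 to 2.37 in cord from the authors' deposited table, include both no difference and a 2-fold one.

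Ocln encodes occludin, a membrane protein of tight junctions in endothelium and epithelium. It did not reach 1 FPKM in DRG, at 0.816 ipsilaterally and 0.638 contralaterally, and so counts as not measured there. In cord it stood at 2.91 FPKM ipsilaterally and 3.75 contralaterally (log2 ratio -0.28). Ocln had wide intervals of the fold, 0.614 to 2.66 in DRG and 0.428 to 1.41 in cord, from the authors' deposited table.

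Kdr and Flt1 encode the VEGF receptors VEGFR-2 and VEGFR-1. VEGFR-2 carries the main signal for vessel growth, and VEGFR-1 binds VEGF tightly and also occurs as a soluble form and on monocytes. Kdr stood at 3.96 FPKM in ipsilateral and 3.07 in contralateral DRG (log2 ratio 0.29), and at 2.84 and 2.61 in cord (0.09). Flt1 was at 5.87 and 5.59 FPKM in DRG (0.06), and in cord at 11.4 FPKM on the ipsilateral and 15.1 on the contralateral side (-0.38). The authors' deposited table implies an interval of 0.527 to 1.07 around the fold of Flt1 in cord, 0.752. The deposited values are per gene, so they do not separate the soluble form of Flt1 from the full receptor.

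Tek encodes TIE2, the angiopoietin receptor, which keeps vessels quiescent and which some macrophages also express. Tek stood at 2.96 FPKM in ipsilateral and 2.64 in contralateral DRG (log2 ratio 0.12), and at 7.64 in ipsilateral and 4.89 in contralateral cord (0.55). The 1.56-fold difference in cord had an interval of 1.01 to 2.43, and the authors' deposited table does not call it (q = 0.23). Of the 3 receptor genes, Tek and Flt1 had cord log2 ratios of opposite sign, and all 3 were above 0 in DRG.

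Slc2a1 encodes GLUT1, which carries glucose across barrier endothelium and which perineurial cells, astrocytes and other cells also use. In DRG it stood at 42.7 FPKM ipsilaterally and 18.9 contralaterally (log2 ratio 1.13), and in cord at 69.2 and 51.7 FPKM (0.41). The 2.26-fold difference in DRG had an interval of 1.57 to 3.25, and the authors' deposited table calls it (q = 0.000656). It ranked 292 from the highest among the 13137 measured features. The 1.34-fold difference in cord had an interval of 0.955 to 1.88, and the authors' deposited table does not call it (q = 0.325).

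Abcb1a encodes P-glycoprotein, the efflux pump that keeps many drugs out of the nervous system. It stood at 14.2 FPKM in ipsilateral and 8.88 in contralateral DRG (log2 ratio 0.62), and at 15.4 and 12.4 FPKM in cord (0.29). The 1.6-fold difference in DRG had an interval of 1.11 to 2.31, and the authors' deposited table does not call it (q = 0.128). Its paralog Abcb1b was at 2.79 and 1.93 FPKM in DRG (0.37) and at 2.94 and 2.37 in cord (0.22), so it followed in the same direction at a lower level. The coding sequences of this pair are 87.7% identical, with an identical stretch of 338 bases, so short reads can be split between them and the separate levels are uncertain.

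In DRG 8 of the 9 measured members had a log2 ratio above 0, beside 56.1% of measured features, and Esam was the 1 below. The median over the 9 measured members was 0.25, and 0.21 without Slc2a1, beside 0.05 over all measured features. Of those 9, 1 was 2-fold higher or more and 0 were lower by as much, where 3.04% of measured features were 2-fold higher and 0.784% 2-fold lower. The authors' deposited table calls 1 member higher and 0 lower, with 4.65% and 1.97% of measured features called. Besides Slc2a1, the intervals of Cdh5 and Abcb1a lay above no difference. The share of all measured features with such an interval was not counted, so this does not set the members apart.

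In cord 6 members were above 0 and 4 below, beside 51.6% of measured features above 0. The median over the 10 was 0.19, and 0.09 without Slc2a1, beside 0.02 over all measured features. No member was 2-fold higher or lower, where 4.46% of measured features were 2-fold higher and 1.64% 2-fold lower. The authors' deposited table likewise calls 0 members, with 4.64% of measured features called higher and 1.58% lower. Tek (p = 0.0463) and Esam (p = 0.0245) had an unadjusted p under 0.05 in the authors' deposited table. The share of all measured features under that level was not counted, so this does not set the members apart. Slc2a1 made up 46.7% of the members' summed FPKM in ipsilateral and 32.7% in contralateral DRG, and 50.1% and 46% in cord.

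**Figure D2:**
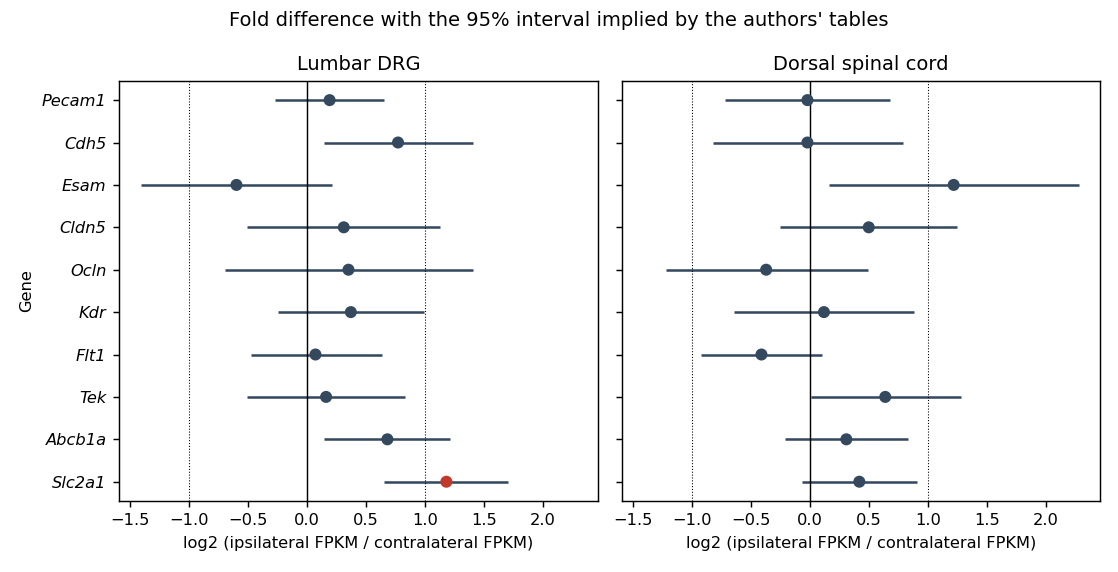
Log2 fold (ipsilateral over contralateral FPKM, no pseudocount) of each gene in DRG and dorsal cord, with bars for the 95% interval implied by the authors' deposited tables and dotted lines at a 2-fold difference. The red point is Slc2a1 in DRG, the 1 member those tables call, and most other bars cross 0.

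The folds of the 2 tissues were also set against each other, which compares 4 libraries and no replicates. For Slc2a1 the log2 fold in DRG minus that in cord was 0.75, with an interval of 0.04 to 1.47 from the standard errors in the authors' deposited tables. For Esam it was -1.82, with an interval of -3.15 to -0.48 from the same authors' deposited tables. The intervals of the other 8 members included 0. None is adjusted for the 10 comparisons or covers variation between animals, so these intervals do not show that the tissues differ. By sign alone, 5 members were higher ipsilaterally in both tissues (Cldn5, Kdr, Tek, Abcb1a and Slc2a1) and 5 had opposite signs. Among the latter, Pecam1 (-0.02) and Cdh5 (-0.01) hardly differed in cord, and Ocln was not measured in DRG. The share of all features with opposite signs was not counted, so this split does not set the members apart.

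**Figure D3:**
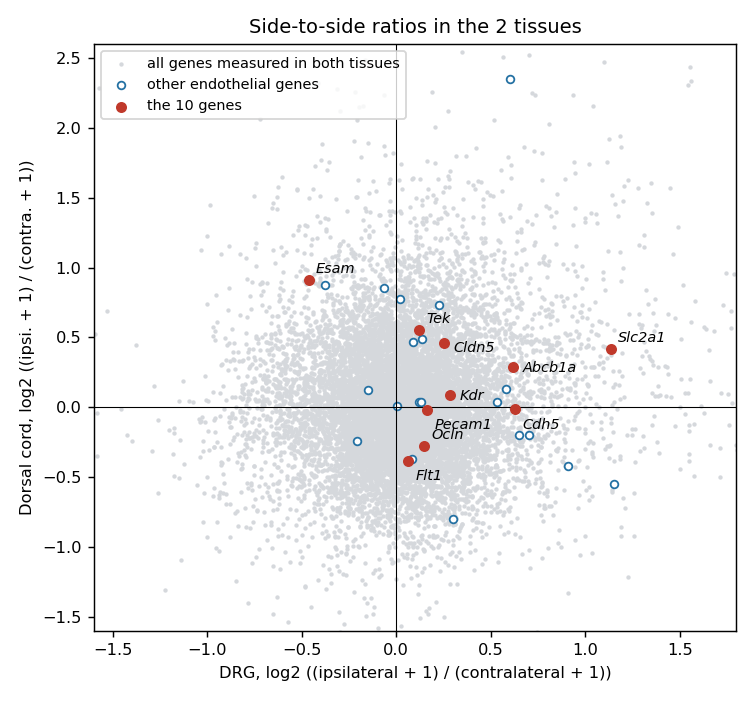
Log2 ratio (pseudocount 1 FPKM) in dorsal cord against that in DRG, with red points for the 10 genes, open blue points for other endothelial genes and grey points for all genes measured in both tissues. Slc2a1 lies farthest right among the 10, at 1.13 in DRG and 0.41 in cord, and Esam lies at the upper left, at -0.46 in DRG and 0.91 in cord; Ocln is drawn although it is under 1 FPKM in DRG.

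Between tissues, 5 members were higher in cord than in DRG on both sides by folds of which 1.62 was the lowest. Abcb1a was higher in cord on both sides by less. The tables were normalised separately, so these folds are approximate and have no interval. Ocln was 3.57-fold higher in ipsilateral cord than in ipsilateral DRG and 5.87-fold higher in contralateral cord than in contralateral DRG. Its level was under 1 FPKM in both DRG libraries. The same folds were 2.86 and 2.51 for Cldn5, 1.94 and 2.71 for Flt1, 1.62 and 2.73 for Slc2a1, and 2.58 and 1.85 for Tek. For Pecam1 they were 0.859 and 0.991, for Kdr 0.716 and 0.849, for Cdh5 0.538 and 0.929, and for Abcb1a 1.09 and 1.4. Esam changed direction, at 1.65 ipsilaterally and 0.467 contralaterally. On the log2 ratio with the pseudocount, 3 of 10 members were at least 2-fold higher in cord ipsilaterally and 4 contralaterally, beside 16.6% and 15.5% of features, and 0 were 2-fold lower on either side, beside 14.5% and 13.1%. Cldn5 and Ocln were 2-fold higher in cord on both sides.

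**Figure D4:**
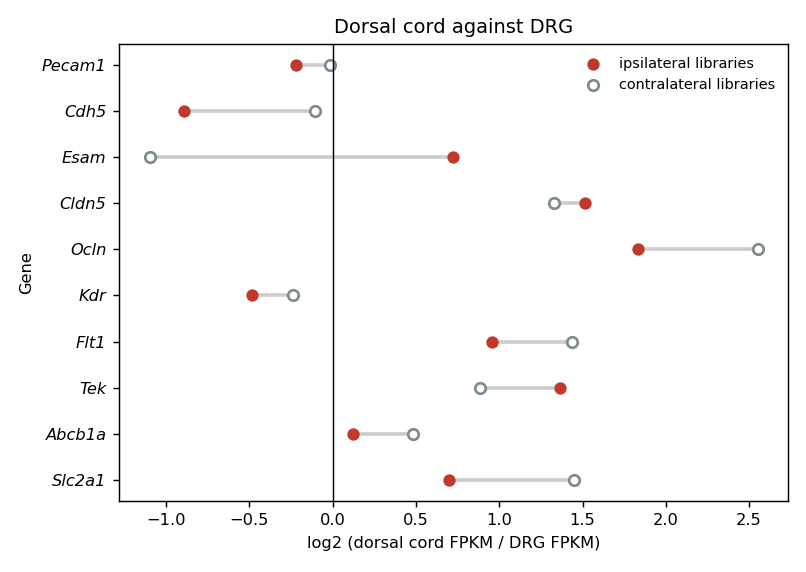
Log2 of the dorsal cord FPKM over the DRG FPKM for each gene, with filled points for the ipsilateral and open points for the contralateral libraries (1 library per tissue and side). Ocln, Cldn5, Flt1, Tek, Slc2a1 and Abcb1a lie right of 0 on both sides, Pecam1, Cdh5 and Kdr left of it, and Esam on either side.

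Other endothelial genes mostly stayed under 2-fold as well, as did most measured features. Of 26 other genes typical of endothelial cells, 21 were measured in DRG, with a median log2 ratio of 0.14, or 0.37 at a filter of 5 FPKM. Above 0 were 17, beside 56.1% of measured features, and 1 was at least 2-fold higher, beside 3.04%. Sox7, a transcription factor of endothelial cells, was that gene, at 1.94 FPKM ipsilaterally and 0.324 contralaterally (1.15), and the authors' deposited table calls it (q = 0.000437). Next came Ly6c1 at 14.4 and 7.17 FPKM (0.91) and Ramp2, an adrenomedullin receptor partner, at 25 and 15 FPKM (0.7). In cord 22 were measured, with a median of 0.04. Above 0 were 15, beside 51.6% of measured features, and 1 was at least 2-fold higher, beside 4.46%. Ecscr, an endothelial surface protein gene, stood at 5.24 FPKM on the ipsilateral side of the cord and 0.224 on the contralateral side (2.35), and at 7.15 and 4.37 FPKM in DRG (0.6). Vwf, the von Willebrand factor gene, was at 3.02 and 1.23 FPKM in cord (0.85), and Cd34, a surface protein gene of endothelial and progenitor cells, at 11.8 and 6.46 (0.77). The authors' deposited table calls these 3 of the 22 in cord, all higher: Ecscr (q = 0.000551), Vwf (q = 0.0168) and Cd34 (q = 0.0395). Of all measured features in cord, 4.64% are called higher. Plvap, which marks fenestrated endothelium, was at 1.39 FPKM ipsilaterally and 3.16 contralaterally (-0.8).

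Most transporter and regulator genes of barrier endothelium had a log2 ratio above 0 in DRG. Of 19 such genes 13 were measured in DRG, with a median of 0.37. Above 0 were 12, beside 56.1% of measured features, and 1 was at least 2-fold higher, beside 3.04%. That gene was Slc7a5, which encodes the large neutral amino acid transporter LAT1, at 37.6 FPKM ipsilaterally and 17.8 contralaterally (1.04). Its heavy chain gene Slc3a2 was at 51.6 and 33.2 FPKM (0.62), and the monocarboxylate transporter gene Slc16a1 at 18.9 and 12.6 FPKM (0.55). Neurons, glia and other cells also express these 3. In cord all 19 were measured, with 9 above 0, beside 51.6% of measured features, and a median of -0.14. The transferrin receptor gene Tfrc stood at 27.1 FPKM ipsilaterally and 47.2 contralaterally in cord (-0.78), and the transcription factor gene Foxf2, a pericyte gene, at 2.17 and 0.413 FPKM (1.17).

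Other tight junction genes had a median of 0.2 over 15 measured genes in DRG and 0.09 over 14 in cord, and of 0.01 and 0.19 with no filter on low values. In DRG 2 of the 15 were at least 2-fold higher, beside 3.04% of measured features. One was Cldn11, of myelin and sheath cells, at 29.7 FPKM ipsilaterally and 12.3 contralaterally (1.2). The other was Cldn1, the perineurial claudin, at 12 and 5.45 FPKM (1.01). Cldn10 is listed at 0 on the ipsilateral side and at 1.04 FPKM on the contralateral side. In cord the junctional adhesion gene F11r was at 10.7 and 4.51 FPKM (1.09), and Cldn11 at 378 and 592 FPKM (-0.65).

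Signals of vessel growth had medians of 0 in DRG and -0.1 in cord, with members in both directions. Of 14 measured in DRG, 7 were above 0 and 7 below, and 0 were 2-fold different. Figf, the VEGF-D ligand gene, differed most, at 1.69 FPKM ipsilaterally and 0.502 contralaterally (0.84), and the authors' deposited table does not call it (q = 0.0735). Vegfa, the main ligand of Kdr and Flt1, stood at 8.34 FPKM ipsilaterally and 12.1 contralaterally (-0.49), and Vegfb, a ligand of Flt1, at 18.4 and 29.8 FPKM (-0.67). In cord 15 were measured, with 6 above 0 and 9 below. The peptide gene Apln stood at 12.6 FPKM on the ipsilateral side of the cord and 24.1 on the contralateral side (-0.89) and its receptor gene Aplnr at 4.2 and 8.17 FPKM (-0.82). The authors' deposited table calls Apln (q = 0.0247) and not Aplnr (q = 0.0863). Pgf, a ligand of Flt1, was at 6.57 and 4.34 FPKM in cord (0.5), and the hypoxia-inducible factor gene Epas1 at 53.9 and 38.6 (0.47).

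The list named for endothelial activation also holds clotting-control genes such as Procr and Thbd, which are not markers of activation. It had a median of 0.7 over 7 measured genes in DRG, or 0.42 over all 10, and of 0.1 over 6 in cord. In DRG Procr, the endothelial protein C receptor gene, stood at 14 FPKM ipsilaterally and 3.81 contralaterally (1.64). Thbd, encoding thrombomodulin, was at 8.09 and 4.6 FPKM (0.7). Both genes are active in several non-endothelial cell types too. The adhesion genes Icam1 (0.4) and Vcam1 (-0.03) and the chemokine receptor gene Darc (0.11) were the lowest of the 7 in DRG. The leukocyte-capturing selectin genes Sele and Selp did not reach 1 FPKM in any library. In cord Icam1, an adhesion gene of activated endothelium and microglia, stood at 2.08 FPKM ipsilaterally and 0.556 contralaterally (0.99).

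Markers of the cells around vessels mostly had log2 ratios above 0 in DRG. Mural genes (pericytes and smooth muscle) had a median of 0.34 over 12 measured genes. Of these 12, 11 were above 0, beside 56.1% of measured features. The authors' deposited table calls 3 of them higher, beside 4.65% of measured features. The list does not separate pericyte from smooth muscle genes. Pdgfrb (0.02), Cspg4 (0.01) and Rgs5 (-0.08) were the lowest of the measured mural genes. The 2 at least 2-fold higher were Vtn at 17.7 and 6.14 FPKM (1.39) and the smooth muscle actin gene Acta2 at 10.5 and 4.55 (1.05). Myh11 (0.75) and Anpep (0.58) came next, then Tagln (0.44), Cd248 (0.38), Abcc9 (0.31), Mcam (0.31) and Notch3 (0.22). Fibroblast and connective tissue sheath genes were all above 0, with 4 of the 12 at least 2-fold higher, beside 3.04% of measured features. Their median was 0.79 and their summed level 765 FPKM ipsilaterally and 403 contralaterally. Lum, a matrix proteoglycan gene, was at 44.1 and 16.8 FPKM (1.34), and Slc6a13, a transporter gene of meningeal fibroblasts, at 4.23 and 1.57 (1.03). The part of sheath cells in the Slc2a1 difference was not tested. In cord the mural median was 0.25 over 13 genes and the fibroblast median 0.17 over 7, with a summed fibroblast level of 33.6 FPKM ipsilaterally and 33 contralaterally.

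Red cell genes were close between the sides in DRG. The 7 red cell genes in the tables summed to 13859 FPKM in ipsilateral and 14069 in contralateral DRG, with a median log2 ratio of -0.05. In cord they summed to 143 and 215 FPKM, with 3 genes listed at 0 ipsilaterally and 2 contralaterally. The pan-myeloid genes had medians of 1.23 in DRG and 1.86 in cord. At least 2-fold higher were 7 and 9 of 10 of them, beside 3.04% and 4.46% of measured features. Among the members, Slc2a1 in DRG lay within the top 2.22% of measured features, Cdh5 within 7.51% and Abcb1a within 7.69%, and Esam within the top 5.54% in cord.

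**Figure D5:**
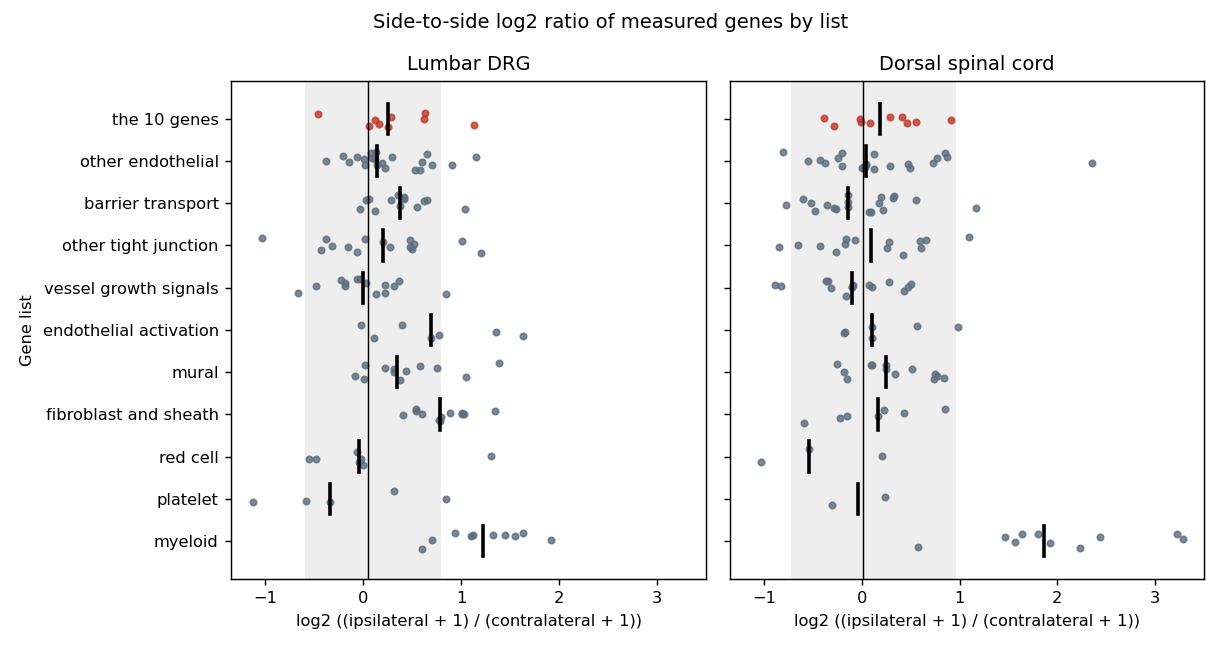
Log2 ratio (pseudocount 1 FPKM) of each measured gene by list in DRG and dorsal cord, with thick bars for list medians, a thin line for the median of all measured features and a grey band from their 5th to 95th percentile (-0.58 to 0.78 in DRG, -0.71 to 0.96 in cord). The 9 measured members in DRG centre on 0.25 and the 10 in cord on 0.19, while the myeloid medians are 1.23 and 1.86.

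By Euclidean distance over the 4 log2(FPKM + 1) values, the features nearest to Cldn5 included Baiap2 (distance 0.12), Cdkn1c (0.14), A2m (0.18) and Hecw2 (0.24). Baiap2, the nearest, had 4.81 FPKM in ipsilateral and 3.89 in contralateral DRG, and 15.1 and 10.5 FPKM in cord. This likeness rests on 4 libraries.

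In the tables of mouse build mm9, each of the 10 genes has a locus that no other feature shares. As the tables give them, Slc2a1 lies on chromosome 4 from 118781349 to 118809934 and Tek on chromosome 4 from 94405990 to 94541630. Chromosome 5 holds Abcb1a (8660091 to 8748570), Kdr (76329298 to 76374453) and Flt1 (148373771 to 148537564). Cdh5 is on chromosome 8 (106625524 to 106668402), Esam on chromosome 9 (37335673 to 37345904) and Pecam1 on chromosome 11 (106515531 to 106576595). Ocln is on chromosome 13 (101267321 to 101322453) and Cldn5 on chromosome 16 (18776939 to 18778355).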

How the data were processed

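RNA was extracted with a QIAGEN RNeasy kit and made into libraries with an Epicentre ScriptSeq kit, per the labels' protocols. The submitters' processing notes name TopHat 1.4.0, Cuffdiff 1.3.0 and mouse build mm9; annotation, filters and strandedness are not given there. The authors' deposited tables, 1 per tissue, give FPKM for each library, normalised within the table. The authors also deposited a test statistic, its p-value and q-value, and the log2 fold. The test statistic is the log2 fold over a standard error, since its two-sided normal p matched the deposited p-value within 0.001 for 100% of 15904 features in DRG and 15279 in cord.

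From the deposited FPKM, log2 ratios with a pseudocount of 1 FPKM, plain folds and 95% intervals (1.96 standard errors) were computed with Python 3.11.15, numpy 2.4.6, pandas 2.3.3 and scipy 1.17.1, and coding sequences were aligned with Biopython 1.88 on GENCODE transcripts. Ratio and threshold were tried on simulated libraries of an assumed depth, with planted folds larger than the members' and without low genes. That trial does not cover smaller folds or low genes. Read counts are not given, so depth is known only through these standard errors, 0.23 to 0.54 (log2) for the members in DRG and 0.25 to 0.54 in cord. The median log2 ratio of all measured features was 0.05 in DRG and 0.02 in cord. Member log2 ratios, counts past 2-fold of members and of all features, and list medians were recomputed under other settings. These were a pseudocount of 0.1 or 3 FPKM, no filter or one at 5 FPKM, and rescaling to equal medians or upper quartiles. The counts were also taken by the authors' call (q up to 0.05). Member ratios and counts with no pseudocount were added after seeing the data. Other values were not recomputed. The members and lists were chosen with earlier results of these data known. Named genes are the 10 members, Abcb1b, the up to 4 measured genes of each list that differed most by absolute log2 ratio in each tissue, and the 5 features nearest to Cldn5. Ecscr, Icam1 and Darc in DRG, Vcam1, Sele, Selp, Pf4, Ppbp, Mog, Mobp, Slc6a5, Aqp4, Slc1a2, Cd34 and Slc2a10 are named for contrast. So are the mural genes Pdgfrb, Cspg4, Rgs5, Tagln, Cd248, Abcc9, Mcam and Notch3. The listed symbols Eraf and Drg11 had no match. A few genes chosen by this rule are not reported here.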

Additional observations from a re-analysis of the deposited data

Results flagged for a closer look

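Among the members, 5 had log2 ratios of opposite sign in DRG and cord, and the difference was not tested between animals. The share of all features with opposite signs was not counted. Pecam1 (-0.02) and Cdh5 (-0.01) hardly differed in cord, and Ocln was not measured in DRG. The log2 ratio in DRG minus that in cord was 0.18 for Pecam1, 0.64 for Cdh5, 0.44 for Flt1, 0.43 for Ocln and -1.37 for Esam. Of these 5, Esam alone had an interval of the difference that left out 0. Among the other named genes, those with opposite signs of at least 0.5 each were Cldn11 (difference 1.85), Dcn (1.6) and Sox7 (1.7). Dcn, a fibroblast proteoglycan gene, stood at 494 FPKM in ipsilateral and 245 in contralateral DRG (1.01), and at 4.42 and 7.19 in cord (-0.59). In cord Sox7 was at 0.571 FPKM ipsilaterally and 1.3 contralaterally (-0.55).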

How the results depend on the processing

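No paired analysis was possible because each group has 1 library. A pseudocount or a filter cannot change the sign of a member's log2 ratio. Rescaling to equal medians or upper quartiles could, and the direction of every member's log2 ratio held under both. Over all settings tried, Slc2a1 in DRG lay between 1.06 and 1.18 and Esam in cord between 0.61 and 1.22. The 1 member 2-fold higher in DRG remained 1 under all of them. In cord the count of 0 became 1 (Esam) at a pseudocount of 0.1 FPKM and 1 with no pseudocount. At a filter of 5 FPKM, which keeps 6 members per tissue, the members' median moved to 0.44 in DRG and 0.35 in cord. Counts of all features moved more. In DRG (400 higher, 103 lower) they were 679 and 259 at a pseudocount of 0.1 FPKM, 204 and 44 at 3 FPKM, and 611 and 259 by the authors' call, and a filter at 5 FPKM left 68 lower. In cord (595 higher, 219 lower) they were 964 and 481 at 0.1 FPKM, 264 and 81 at 3 FPKM, and 373 and 130 at a filter of 5 FPKM. A pseudocount acts on low genes by construction. The intervals limit what can be seen: for 9 of 10 members in each tissue, the interval of the log2 fold reached less than 1 to either side of it. List medians moved by 0.1 or more in places, with the pseudocount as well as the filter. Among these moves, mural genes in DRG had 0.51 and fibroblast and sheath genes 0.98 at a pseudocount of 0.1 FPKM. At 3 FPKM, fibroblast and sheath genes in DRG had 0.62 and barrier transport genes 0.23. With no filter, endothelial activation genes in DRG had 0.42, other tight junction genes 0.01 in DRG and 0.19 in cord, and red cell genes in cord 0. At a filter of 5 FPKM, other endothelial genes in DRG had 0.37 and other tight junction genes in cord 0.26.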

Other observations

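The 4 other glucose transporter genes measured in DRG had log2 ratios between -0.41 and 0.22, beside 1.13 for Slc2a1. This list and the next were chosen after the values were seen. Of 11 other genes of the family these 4 passed 1 FPKM in DRG, with a median log2 ratio of -0.05. Slc2a10, under that level, had 0.372 FPKM on the ipsilateral and 0.0728 on the contralateral side (0.36). The neuronal transporter gene Slc2a3 was at 24 FPKM ipsilaterally and 24.1 contralaterally. In cord 7 were measured, with a median of -0.23, and Slc2a5, a microglial fructose transporter gene, was at 3.27 FPKM ipsilaterally and 0.898 contralaterally (1.17).

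Glycolytic enzyme genes had a median of -0.03 over 15 genes in DRG, with 7 above 0 and 8 below, and of 0.18 in cord. In DRG Aldoc was at 39.9 FPKM ipsilaterally and 69.6 contralaterally (-0.79) and Pgk1 at 310 and 194 FPKM (0.68). In cord Hk2 was at 3.28 and 1.14 FPKM (1.0).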
